A study of Mus musculus with 2 samples.

Results

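The glutathione, peroxiredoxin and thioredoxin redox genes were followed in sorted BM LSKs from Scl/tTA-BA animals, a tet-off model of chronic myelogenous leukemia (CML), by comparing week-0 with week-3 of doxycycline withdrawal. Genes were taken by name: alpha, kappa, mu, omega, pi, theta and zeta glutathione S-transferases, glutathione peroxidases, peroxiredoxins, thioredoxins with their reductases and domain relatives, Gclc, Gclm, Gss, Gsr, Sod1, Sod2, Sod3, Cat, Nqo1, Nqo2, Nfe2l2 and Keap1. Txnip and names with -ps were left out of this set. The rule found 66 of 34745 genes, and no measured value entered it.

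LSKs are lineage-negative bone marrow cells positive for Sca1 and c-Kit, a gate that holds stem cells and early progenitors. Both groups were Scl/tTA-BA double transgenic mice on the B6 background (strain label C57BL/6), in which the Scl element drives the transactivator tTA and tTA in turn drives the fusion gene BCR/ABL1 (BA) once doxycycline is absent. The week-0 group was still fed doxycycline in the drinking water and the week-3 group had been without it for 3 weeks. The cells of 3 mice were mixed into 1 library per time point, so mouse-to-mouse variation cannot be seen and each comparison sets 1 library against the other. Mice that carry neither or only 1 of the transgenes were not analysed here, the age of the mice is not given in the sources used here, and the share of sorted cells that expressed BA was not measured in these libraries.

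Glutathione is a small thiol made in a pair of ATP-dependent steps, by glutamate-cysteine ligase (Gclc, the catalytic subunit, and Gclm, its modifier) and then by glutathione synthetase (Gss), and it is returned from its oxidized form by glutathione reductase (Gsr). Glutathione peroxidases and peroxiredoxins remove peroxides, the first with electrons from glutathione and the second mostly with electrons from thioredoxin, and both relays draw on NADPH. The transcription factor Nrf2 (Nfe2l2), held down by Keap1, drives many of these genes under oxidative or electrophile stress, and stem cells of the marrow are known for keeping reactive oxygen low.

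The level of a gene is given as FPKM, fragments per kilobase of exon model set relative to the library's total, beside the number of reads behind it. Levels of different genes also carry the exon length used for the FPKM, which cancels in the ratio between weeks. Reads on genes numbered 6356164 at week-0 and 3886695 at week-3. Upregulated here means an FPKM ratio (week-3 over week-0) of 2 or more, and downregulated a ratio of 0.5 or less, each with q under 0.05 by the exact test of edgeR over 15377 genes with reads in both libraries. Changes are log2 of that ratio, and the brackets after them hold 95% intervals (exact Clopper-Pearson) that cover counting error only. Because there was 1 library per time point, the q-values rest on an assumed biological coefficient of variation of 0.1 and compare the libraries, not the conditions.

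Reads were found in both libraries for 52 of the 66 redox genes. Of these, 5 were upregulated (Gsr, Gstm1, Gstm4, Gstp2 and Txnl4b) and 3 were downregulated (Gpx7, Gsta4 and Nqo1). That is 9.62% up and 5.77% down, where 8.11% of all tested genes were upregulated and 10.1% downregulated. With limits of 1.5 times and 0.67 times at the same q-value, 13 redox genes (25%) passed upward against 14.6% of all tested genes, and 6 (11.5%) passed downward against 13.6%. Under TMM or median-of-ratios scaling these counts were 8 upward and 8 downward: Gclc, Gpx1, Sod2, Txndc15 and Txnrd2 no longer passed, and Cat and Gclm did. The share of all tested genes past the 1.5-fold limits was not computed under these scalings, so these counts have no background beside them. By the 2-fold limits alone, without the test, 6 passed upward and 4 downward, against 14.2% and 16.2% of all tested genes. The median difference in log2(FPKM + 0.1) was 0.16 over the 50 redox genes that reached an FPKM of 1 in either library and 0.10 over all 11776 such genes. It was 0.37 against 0.14 at an FPKM of at least 5, and 0.04 against -0.01 under TMM scaling. The shares of redox genes called were thus near those of all genes at the 2-fold limits. At an assumed coefficient of variation of 0.2, the calls of Gstp2, Gsta4 and Nqo1 were lost and no further gene passed the 1.5-fold limits, and at 0.4 no redox gene was called by edgeR, with 29 and 87 of all genes called up and down.

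The redox genes took 0.708% of the reads at week-0 (95% interval 0.702% to 0.715%, exact Clopper-Pearson) and 0.924% at week-3 (0.915% to 0.934%). Their summed FPKM was 3407 at week-0 and 5013 at week-3, of which Sod1 alone made up 1304 and 2334. Of the 52 genes, 28 had a higher FPKM at week-3 and 24 a lower one. Among all 15377 tested genes, 8253 were higher and 7124 lower, a similar split. The counting interval lay above 0 for 24 redox genes and below 0 for 12. Such intervals were not counted over all genes, so these counts have no background beside them. Single genes thus went both ways while the summed level was higher at week-3.

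**Figure D1:**
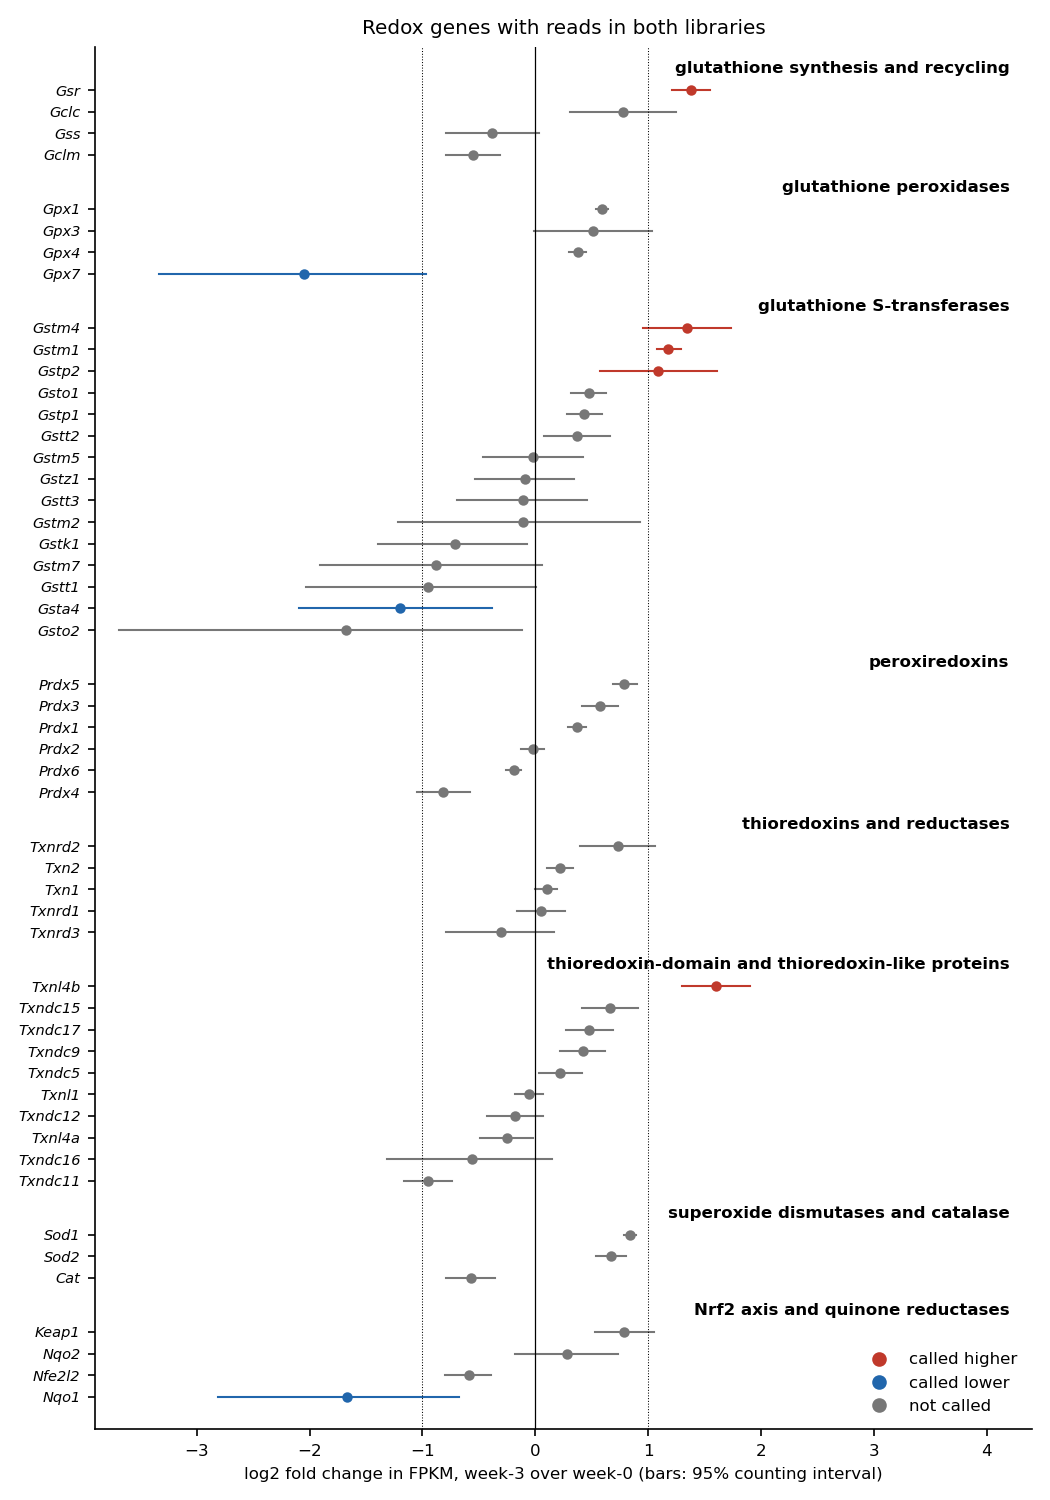
The log2 fold change in FPKM (x axis, week-3 over week-0) of 51 redox genes with reads in both libraries, grouped by role, with 95% counting intervals as bars. Gsta3, with 1 read at week-0 and 2 at week-3, is not drawn. Called genes are coloured, and each of the 8 has its whole interval on 1 side of 0.

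The other 14 genes lacked reads in 1 or both libraries. No read was found in either library for 7 genes, Gpx5, Gpx6, Gpx8, Gsta2, Gstt4, Prdx2-rs3 and Txndc8. Another 7 genes were at 0 in 1 library, with at most 5 reads in the other: Gpx2, Gstm3, Gstm6, Sod3 and Txndc2 at week-3, and Gsta1 and Prdx6b at week-0. Sod3, the extracellular superoxide dismutase, had 5 reads at week-0 and none at week-3. A count of 0 allows up to 3 reads, or 0.472 reads per 1000000 at week-0 and 0.772 at week-3, so differences of these genes were not detectable at this depth.

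Several of the enzymes carry selenocysteine, an amino acid read from TGA, a codon that otherwise stops translation. An in-frame TGA was found in 7 of 65 redox genes with a complete coding sequence in GENCODE M21 (GRCm38): Gpx1, Gpx2, Gpx3, Gpx4, Txnrd1, Txnrd2 and Txnrd3. The codons around it are shown because they divide the peroxidase family, with the TGA in capitals.
Gpx1: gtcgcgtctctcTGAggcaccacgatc
Gpx3: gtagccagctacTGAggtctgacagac
Gpx4: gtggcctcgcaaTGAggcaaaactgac
Txnrd1: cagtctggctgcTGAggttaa
Txnrd2: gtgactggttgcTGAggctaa
Txnrd3: cagaaaggctgcTGAggctag
In the peroxidases the TGA lies inside the coding sequence (codon 47 in Gpx1, 73 in Gpx3 and 129 in Gpx4), and in the reductases it is the last codon but one before the stop (codon 612 of 613 in Txnrd1). Gpx7, the peroxidase that was downregulated, has no in-frame TGA, and neither do Gpx5, Gpx6 and Gpx8.

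Within glutathione synthesis and recycling, the recycling enzyme rose and none of the 3 synthesis genes was called. Gsr (chr8:33652523-33698163) had an FPKM of 24.1 (456 reads) at week-0 and of 62.7 (725 reads) at week-3. It was upregulated by 1.38 on the log2 scale (1.21 to 1.55, edgeR q = 2.467e-08). The more deeply sequenced week-0 library thus held fewer Gsr reads than the week-3 library.
Gclc had an FPKM of 3.54 at week-0 and 6.09 at week-3, from 77 and 81 reads. Its change of 0.78 (0.31 to 1.25, edgeR q = 0.0462) passed only the 1.5-fold limit, and not under TMM or median-of-ratios scaling. The catalytic subunit and its modifier thus had changes of opposite sign, since Gclm had an FPKM of 9.08 at week-0 and 6.22 at week-3 (-0.55, -0.79 to -0.31) and was not called (q = 0.07322), although it passed 0.67 under those scalings. Gss had an FPKM of 3.07 and then 2.36, with an interval that spans 0 (-0.38, -0.79 to 0.03). The summed FPKM of the 4 genes was 39.8 at week-0 and 77.4 at week-3, a log2 difference of 0.96 that became -0.10 without Gsr. Gclm and Gss are among 15 redox genes, none of them called, that overlap other annotated genes, and whether reads were counted by strand is not given in the sources used here.

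Among the glutathione peroxidases, the abundant selenocysteine enzymes were not called at 2-fold and the scarce Gpx7 fell. Gpx1, the cytosolic and mitochondrial peroxidase of hydrogen peroxide, had an FPKM of 294 (6371 reads) at week-0 and of 442 (5863 reads) at week-3. Its change of 0.59 (0.54 to 0.64, edgeR q = 0.01887) passed the 1.5-fold limit, but not under TMM (0.48) or median-of-ratios scaling (0.50). Gpx4, which reduces lipid peroxides in membranes, had an FPKM of 178 at week-0 and 231 at week-3 (0.38, 0.30 to 0.45, q = 0.1767). Gpx3, the secreted peroxidase, was measured at 4.64 and 6.62, from 70 and 61 reads, with an interval from -0.01 to 1.03.
Gpx7 (chr4:108400390-108406961), a peroxidase of the endoplasmic reticulum, had an FPKM of 5.24 (54 reads) at week-0 and of 1.27 (8 reads) at week-3. It was downregulated by 2.05 on the log2 scale (-3.33 to -0.97, edgeR q = 0.001181). With 8 reads at week-3, the size of this change is loosely set, although its interval stays below 0.

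**Figure D2:**
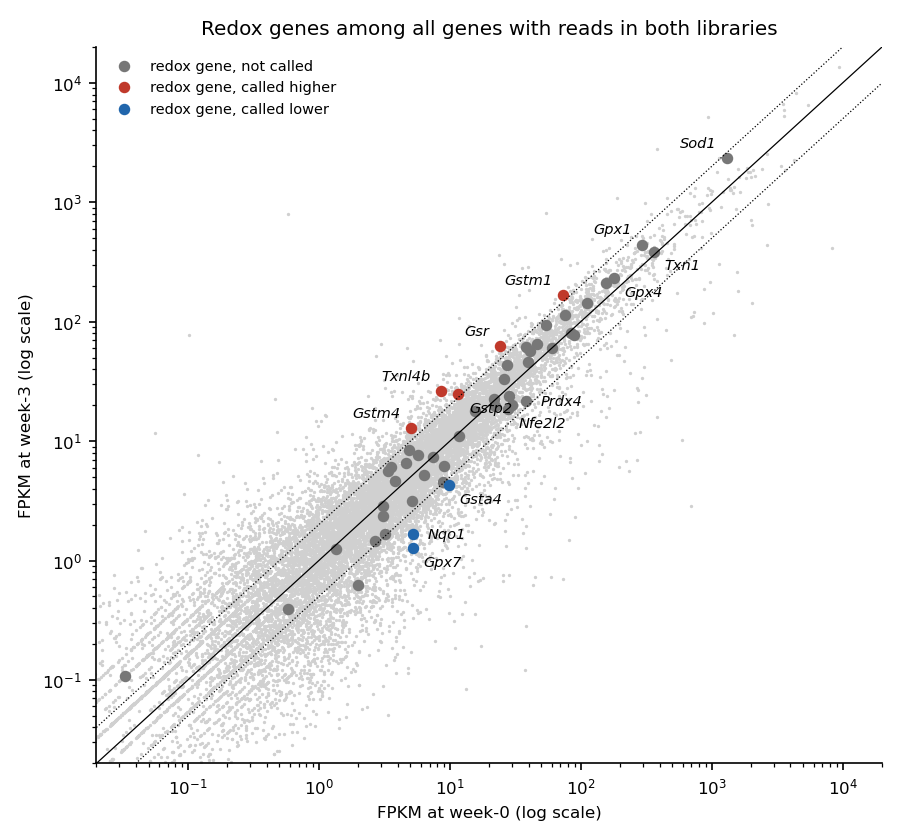
FPKM at week-3 (y axis) against FPKM at week-0 (x axis) of each gene with reads in both libraries, on log scales, with redox genes as large points and all other genes as small grey points. The solid line marks equal levels and the dotted lines the 2-fold limits; Sod1, Txn1 and Gpx1 lie at the upper right, and the downregulated Gpx7, Gsta4 and Nqo1 had an FPKM under 10 at week-0.

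The glutathione S-transferases, which join glutathione to electrophiles, went both ways, also within classes. Of 21 genes, 16 had reads in both libraries, 3 were upregulated and 1 was downregulated. Gstm1 (chr3:108012255-108017973), of the mu class, had an FPKM of 73.7 (1343 reads) at week-0 and of 167 (1865 reads) at week-3. It rose by 1.18 on the log2 scale (1.08 to 1.29, edgeR q = 5.75e-07). Gstm4 (chr3:108040408-108044894), which lies in the same cluster of chromosome 3, rose from an FPKM of 5.07 to 12.9, from 93 and 144 reads (1.34, 0.95 to 1.73, q = 2.912e-05). The longest identical stretch between transcripts of Gstm1 and Gstm4 was 26 bases, shorter than the 100-base reads. Gstm1 and Gstm3 share 112 bases, longer than a read, but Gstm3 had 1 read at week-0 and none at week-3.
The other mu class genes with reads in both libraries had changes near or below 0. Gstm2 changed by -0.11, Gstm5 by -0.02 and Gstm7 by -0.88 (-1.91 to 0.06), each with an interval that spans 0. None of these 3 was called, and they had 13 to 72 reads at week-3. The summed FPKM of the mu class was 90.5 at week-0 and 190.3 at week-3, mostly Gstm1.

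Gstp1, the pi class enzyme, was one of the most abundant redox genes, with an FPKM of 155 at week-0 and 210 at week-3 (0.43, 0.28 to 0.59, edgeR q = 0.1323). Its neighbour Gstp2 (chr19:4040285-4042236) was called upregulated, with 57 and 74 reads and an FPKM of 11.7 and 24.7 (1.09, 0.57 to 1.61, q = 0.006578). The coding sequences of Gstp1 and Gstp2 were 98.1% identical, and their transcripts share a stretch of 423 bases. Reads of 100 bases can thus often not be assigned to one of them. The Gstp2 call is therefore uncertain, and it was lost under TMM (0.97) and median-of-ratios scaling. Summed, the pair had 804 and 691 reads, a log2 ratio per library total of 0.49 (0.34 to 0.64).
Gsto1, of the omega class, had an FPKM of 46.4 at week-0 and 64.5 at week-3 (0.48, 0.32 to 0.63, q = 0.09074). Gsta4 (chr9:78191966-78209348), the alpha class enzyme for 4-hydroxynonenal and related products of lipid peroxidation, went the other way. It fell from an FPKM of 9.86 to 4.30, from 60 and 16 reads (-1.20, -2.09 to -0.38, q = 0.03496). The remaining changes of genes with over 10 reads lay between -1.68 for Gsto2 (21 and 4 reads, q = 0.1226) and 0.37 for Gstt2, and none of them was called.

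None of the 6 peroxiredoxins with reads in both libraries was called at the 2-fold limits, and their changes were of both signs. Peroxiredoxins differ mainly by where they work. Prdx5, found in mitochondria, peroxisomes and the cytosol, had an FPKM of 54.4 (1339 reads) at week-0 and of 94.3 (1420 reads) at week-3 (0.79, 0.69 to 0.90, edgeR q = 0.001403), which passed the 1.5-fold limit. Prdx3, the mitochondrial peroxiredoxin, had an FPKM of 76.3 and then 113 (0.57, 0.41 to 0.73, q = 0.03623), a ratio just under 1.5. Prdx4, the peroxiredoxin of the secretory pathway, differed in the other direction. It had an FPKM of 37.9 (593 reads) at week-0 and of 21.5 (206 reads) at week-3 (-0.82, -1.05 to -0.58, q = 0.00345), past the limit of 0.67.
The cytosolic members had smaller changes. Prdx1 had an FPKM of 112 and then 145 (0.37, 0.29 to 0.45, q = 0.1832). Prdx2, abundant in red cells, had an FPKM of 60.7 and then 59.7 (-0.02, -0.13 to 0.08). Prdx6, which uses glutathione in place of thioredoxin, had an FPKM of 89.3 and then 78.1 (-0.19, -0.26 to -0.13, q = 0.5609). The summed FPKM of the peroxiredoxins was 430.5 at week-0 and 512 at week-3, a log2 difference of 0.25. Prdx5 shares sequence on the opposite strand with Trmt112, and Prdx2 overlaps Junb and Rnaseh2a, so part of their reads may come from those genes if strand was not used.

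Thioredoxin passes electrons through a pair of cysteines, and the codons that hold this site, for Trp and then Cys-Gly-Pro-Cys, are shown in capitals because they set the true thioredoxins apart from most genes that carry the name.
Txn1: gctacgTGGTGTGGACCTTGCaaaatg
Txn2: gcacagTGGTGTGGCCCCTGCaagatc
The site begins at codon 31 of Txn1 and codon 89 of Txn2. It was found in 4 of the 65 coding sequences (Txn1, Txn2, Txndc2 and Txndc8), and Txndc2 and Txndc8 had at most 5 reads.

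The thioredoxins and their reductases had a summed FPKM of 431.5 at week-0 and 465 at week-3 (log2 0.11, or 0.00 under TMM). Txn1, the cytosolic thioredoxin, had an FPKM of 361 (2409 reads) at week-0 and of 386 (1576 reads) at week-3 (0.10, 0.00 to 0.19, edgeR q = 0.8321), and its change was -0.01 under TMM scaling. Txn2, the mitochondrial form, had an FPKM of 39.5 and then 45.9 (0.22, 0.10 to 0.33). The cytosolic reductase Txnrd1 had an FPKM of 21.7 and then 22.4, and its interval spans 0 (0.05, -0.16 to 0.26, or -0.06 under TMM).
Txnrd2, the mitochondrial reductase, was the one gene of this role past the 1.5-fold limit. It had 155 and 157 reads and an FPKM of 3.37 and then 5.58 (0.73, 0.40 to 1.06, q = 0.02553), and it did not pass under TMM or median-of-ratios scaling. Txnrd3, best known from testis, had an FPKM of 6.38 and then 5.17 (-0.30, -0.79 to 0.17).

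Among 12 genes named for a thioredoxin domain or for likeness to thioredoxin, Txnl4b was upregulated and none was downregulated. Txnl4b (chr8:109565892-109574051) had an FPKM of 8.64 (141 reads) at week-0 and of 26.2 (261 reads) at week-3. It rose by 1.60 on the log2 scale (1.30 to 1.90, edgeR q = 1.427e-08), and it lacks the active-site codons shown above. Its product is known as a splicing protein related to a component of the U5 particle, not as a redox enzyme. The largest upward change among the called redox genes was thus in a gene that the name alone places here.
Txndc11, a protein of the endoplasmic reticulum, differed the other way, with 785 and 248 reads and an FPKM of 8.84 and then 4.57 (-0.95, -1.16 to -0.74, q = 0.0003546), past the limit of 0.67 and just short of 0.5. It passed 0.5 under TMM and median-of-ratios scaling, and it overlaps Snn. Txndc15 had an FPKM of 27.3 and then 43.1 (0.66, 0.41 to 0.91, q = 0.027), past the 1.5-fold limit but not under TMM or median-of-ratios scaling. Txndc5, a disulfide isomerase, had 571 and 407 reads (0.22, 0.03 to 0.41). The summed FPKM of this group was 243 at week-0 and 282 at week-3.

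Superoxide dismutases turn superoxide into hydrogen peroxide, and catalase (Cat) removes the product. Sod1, the cytosolic enzyme, had the highest FPKM of the redox genes, with rank 38 of all genes at week-0 and rank 11 at week-3. This rank carries the exon length used, and Gpx1 had more reads in both libraries (6371 and 5863). It had an FPKM of 1304 (5356 reads) at week-0 and of 2334 (5861 reads) at week-3 (0.84, 0.79 to 0.89, edgeR q = 0.0004665). Sod2, the mitochondrial enzyme, had an FPKM of 38.4 and then 61.2 (0.67, 0.54 to 0.80, q = 0.009897). Both passed the 1.5-fold limit and neither reached 2-fold, and Sod2 did not pass under TMM (0.56) or median-of-ratios scaling (0.58).
Cat had 599 and 246 reads and an FPKM of 30.1 and then 20.2 (-0.57, -0.79 to -0.36, q = 0.04907), and its ratio did not reach 0.67, although it did under TMM (-0.69) and median-of-ratios scaling (-0.66). Sod1 and Sod2 on one side and Cat on the other therefore had changes of opposite sign, with intervals on opposite sides of 0. Gpx1 and the peroxiredoxins also remove peroxides, so this contrast holds for Cat and not for peroxide removal as a whole. The summed FPKM of the group was 1373 at week-0 and 2416 at week-3, a log2 difference of 0.81 that was 0.24 without Sod1.

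**Figure D3:**
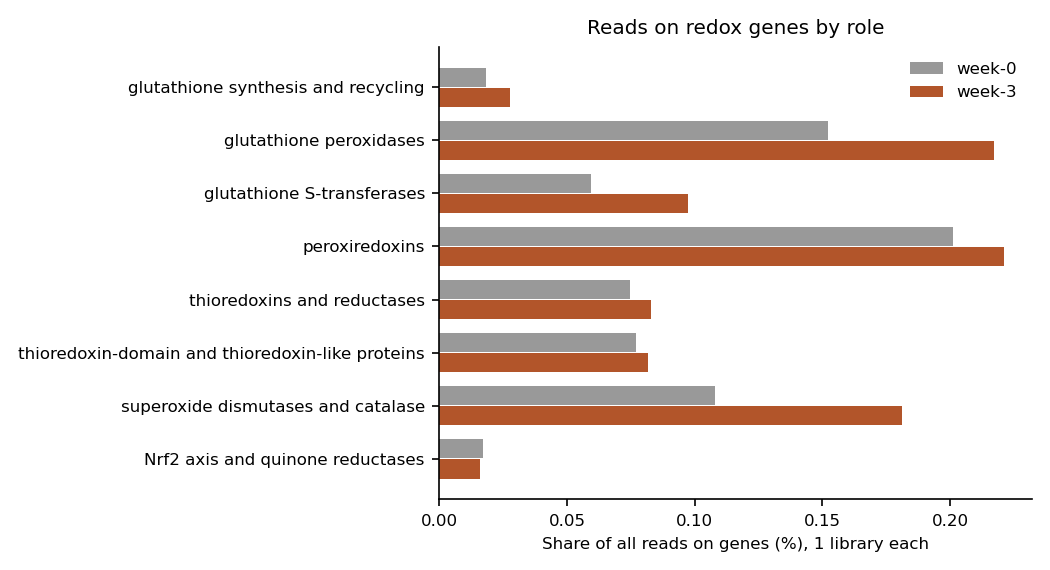
Share of all reads (x axis, percent) taken by each role group (y axis) in the week-0 and the week-3 library, 1 bar per library. Peroxiredoxins took 0.201% and 0.221% of the reads, and superoxide dismutases with catalase took 0.108% and 0.181%.

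The Nrf2 axis had members on both sides. Nfe2l2, which encodes Nrf2, had an FPKM of 27.9 (695 reads) at week-0 and of 18.5 (282 reads) at week-3 (-0.59, -0.80 to -0.39, edgeR q = 0.0378), past the limit of 0.67. Keap1, the adaptor that sends Nrf2 to degradation, had an FPKM of 4.88 and then 8.44, from 243 and 257 reads (0.79, 0.53 to 1.05, q = 0.006653), past the 1.5-fold limit. Keap1 overlaps Gm16754, with strand use not given.
Nqo1 (chr8:107388225-107403206), a quinone reductase and a much used readout of Nrf2 activity, had an FPKM of 5.27 (52 reads) at week-0 and of 1.66 (10 reads) at week-3. It was downregulated by 1.67 on the log2 scale (-2.81 to -0.68, q = 0.006126). Nqo2, a relative which overlaps Serpinb6a, had an FPKM of 3.84 and then 4.66 (0.28, -0.18 to 0.73). The 4 genes together summed to an FPKM of 41.9 at week-0 and 33.3 at week-3 (log2 -0.33), which became 0.08 without Nfe2l2.

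Nrf2 binds an antioxidant response element, searched here as TGACNNNGC on both strands in RefSeq promoters of GRCm38.p6, from 250 bases before to 50 after the start. Such windows were given for 56 of the 66 genes. The element was found in 11 of these genes (19.6%), and in 3781 of all 27025 genes with a window (14%). Counted by window of equal length, 11 of 74 windows of redox genes held it (14.9%) and 4071 of 32851 of all genes (12.4%). The matches for a pair of genes of known roles are shown in capitals, with flanking bases.
Nfe2l2: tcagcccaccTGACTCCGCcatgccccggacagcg
Prdx1: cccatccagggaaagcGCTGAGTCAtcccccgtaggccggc
The stretch of Nfe2l2 is chr2:75704879-75704913 on the minus strand and that of Prdx1 is chr4:116685450-116685490 on the plus strand. None of the 4 upregulated and 2 downregulated genes with a window held a match, which says only that these letters are absent from this stretch.

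Redox genes were also split by the compartment terms of GO that were deposited with the data, a split that was chosen after the values were seen. Of 19 genes with a mitochondrion term, without an endoplasmic reticulum term and with reads in both libraries, 14 had a higher FPKM at week-3 and 5 a lower one. Their median difference was 0.38, and that of all 1221 expressed genes with the same terms was 0.37. Gsr, Prdx5, Sod1, Sod2, Txnrd2 and Gpx1 are among the higher ones, and the lower ones are Gsta4, Gstk1, Prdx6, Gstz1 and Prdx2. Among all 1312 tested genes with the same terms, 939 were higher at week-3 and 373 lower, a similar split.
Of 7 genes with an endoplasmic reticulum term and without a mitochondrion term, 2 had a higher FPKM at week-3 (Keap1 and Txndc5) and 5 a lower one (Gpx7, Gstm7, Txndc11, Txndc12 and Txndc16). The median was -0.50 over the 6 of them with an FPKM of at least 1, and 0.13 over 763 expressed genes with the same terms. Among all 918 tested genes with the same terms, 519 were higher at week-3 and 399 lower. The redox genes Prdx4 and Cat, which carry both terms, were lower. With 7 genes and no test, the median of the endoplasmic reticulum genes is a description. The redox genes with only the mitochondrion term had the same median as all genes with only that term, to within 0.01. This term is broad. Sod1, Txn1, Txnrd1, Prdx1, Prdx2 and Prdx6, named as cytosolic above, carry it too.

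**Figure D4:**
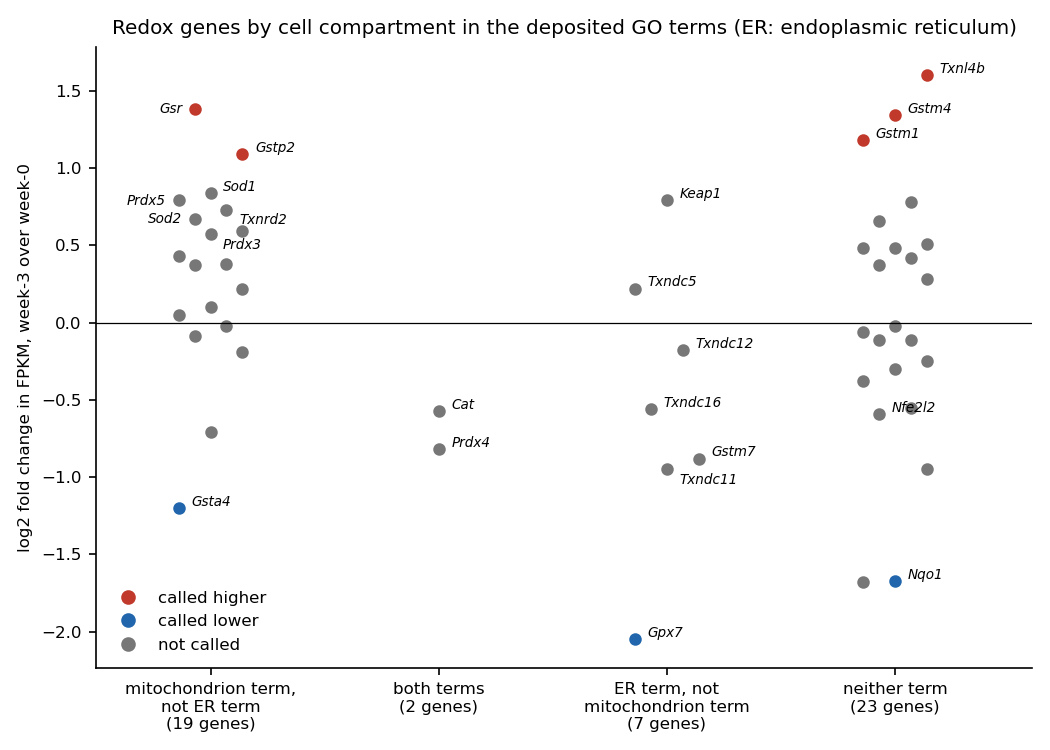
The log2 fold change in FPKM (y axis, week-3 over week-0) of redox genes with reads in both libraries, placed by the GO compartment terms of the deposited tables (x axis), each point being 1 gene. Gsta3 is not drawn; of the 7 genes with only the endoplasmic reticulum term, 5 lie below 0.

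The wider redox pathway was taken as a list of 41 genes outside the set: NADPH supply, glutaredoxins, microsomal glutathione S-transferases, cystine uptake, sestrins, partners and targets of Nrf2, and NADPH oxidase. Of the 40 with reads in both libraries, 7 were upregulated (17.5%) and 7 downregulated (17.5%). Both shares were above those of all tested genes, 8.11% and 10.1%.
The upregulated genes were Cybb, Idh1, Mgst2, Mgst1, Msrb1, Pgd and Ggct. Cybb, the catalytic subunit of the phagocyte NADPH oxidase, had 35 and 233 reads and an FPKM of 0.876 and then 9.53 (3.44, with a lower bound of 2.93, edgeR q = 3.861e-26). Idh1, which makes NADPH in the cytosol, had an FPKM of 2.47 and then 12.9 (2.38, 1.99 to 2.79, q = 2.572e-15). Pgd, which makes NADPH in the pentose phosphate pathway, had 481 and 710 reads and an FPKM of 10.3 and then 25.0 (1.27, 1.10 to 1.44, q = 3.233e-07). Its partner G6pdx had a change of 0.98 (0.72 to 1.25, q = 0.0005632), just short of 2-fold. The microsomal transferases Mgst1 (1.69, 1.41 to 1.98) and Mgst2 (1.73, 1.30 to 2.18) rose too, as did Msrb1, a selenocysteine-carrying methionine sulfoxide reductase (1.59, 1.31 to 1.86), and Ggct, which acts in glutathione breakdown (1.07, 0.57 to 1.59).
The downregulated genes were Bach1, Sqstm1, Maff, Mafk, Sesn2, Srxn1 and Slc7a11. Bach1, a repressor at antioxidant response elements, had an FPKM of 39.3 (1744 reads) at week-0 and of 4.42 (120 reads) at week-3 (-3.15, -3.43 to -2.88, q = 2.321e-34). Sqstm1, the autophagy receptor that can draw Keap1 away from Nrf2, fell from an FPKM of 236.5 to 37.1, from 10541 and 1011 reads (-2.67, -2.77 to -2.58, q = 1.573e-31). The small Maf genes Maff and Mafk, partners of Nrf2 and of Bach1, fell (log2 -2.53 and -2.24), and Mafg, the third, changed by 0.40. Sesn2, Srxn1, which reactivates overoxidized peroxiredoxins, and Slc7a11, the cystine importer, fell as well (log2 -2.06, -1.40 and -1.17). At an assumed coefficient of variation of 0.2 the calls of Srxn1, Slc7a11 and Ggct were lost, and with a pseudocount of 1 these 3 genes were inside the 2-fold limits (-0.83, -0.33 and 0.64). Hmox1, the heme oxygenase, had 58 and 25 reads, with an interval that spans 0 (-0.50, -1.24 to 0.20). The inhibitor of thioredoxin, Txnip, had an FPKM of 7.24 and then 9.93 (0.46, 0.22 to 0.70, q = 0.1436).

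**Figure D5:**
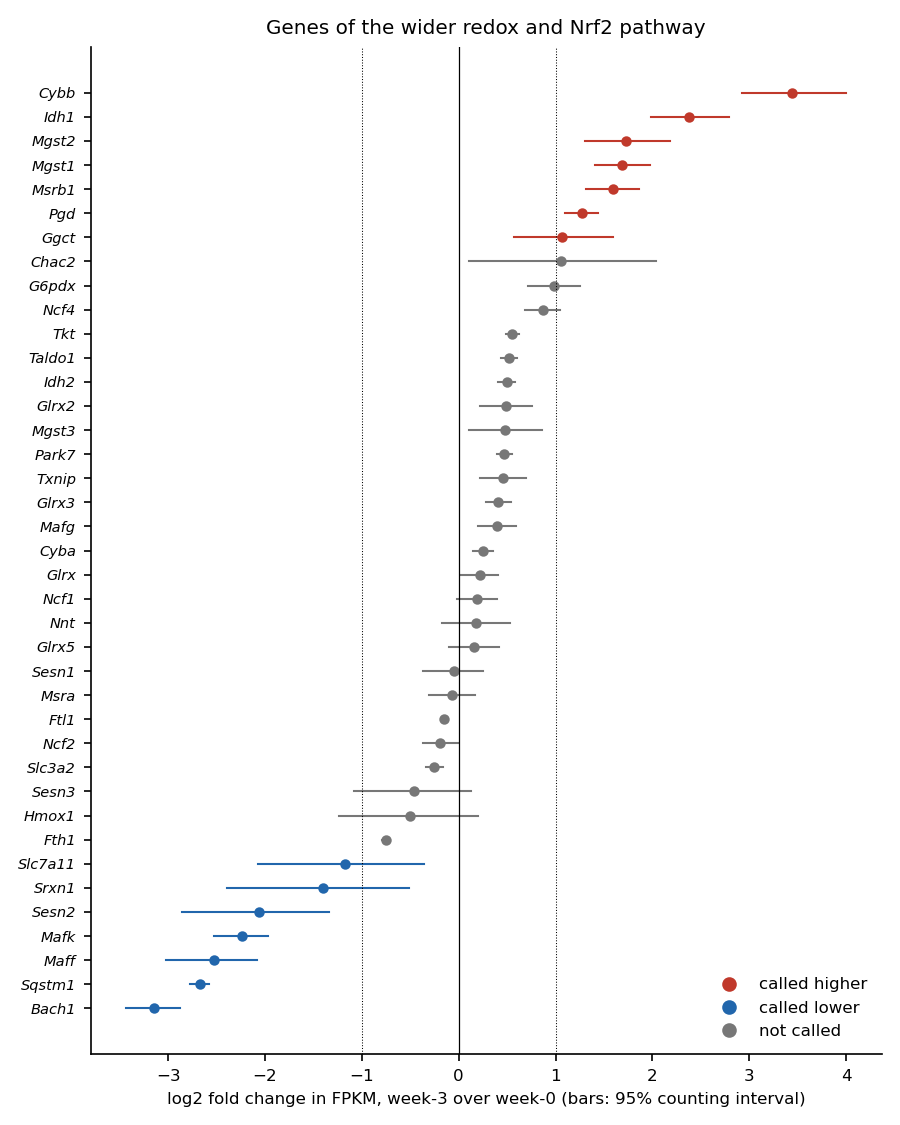
The log2 fold change in FPKM (x axis, week-3 over week-0) of 39 genes of the wider redox pathway with at least 10 reads over both libraries, with 95% counting intervals as bars. Cybb and Idh1 lie farthest to the right and Bach1 and Sqstm1 farthest to the left.

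Markers of other blood cells moved between the libraries as well. All 7 neutrophil and granule genes (Elane, Mpo, Prtn3, Ltf, Camp, S100a8 and S100a9) rose, with a summed FPKM of 1619 at week-0 and 8031 at week-3. All 6 mast cell and basophil genes rose (119.5 to 1883), 5 of 7 erythroid genes fell (1048 to 152) and 3 of 6 B and plasma cell genes fell (322 to 55.3). Of the 4 macrophage and 4 megakaryocyte genes none was called, with summed FPKM of 17.2 and 29.1, and of 28 and 35.7. None of the 3 T cell genes was called either (11.3 and 5.67), and Cd3e was at 0 at week-3. Among 6 markers listed for LSKs, Flt3 and Mecom fell, and Cd34 changed by -0.61 (-0.70 to -0.52), past 0.67. Slamf1 went the other way without a call, with 10 and 15 reads (1.29, 0.04 to 2.61). Of the genes for the sorting markers, Kit had an FPKM of 16.9 and then 11.5, and Ly6a, which encodes Sca1, 19.8 and then 14.8. The marker changes come from the same pair of libraries as every redox comparison above. Their part in those results cannot be separated with 1 library per time point and was not tested. The row of mouse Bcr was called downregulated, with 371 and 108 reads (-1.07, -1.39 to -0.76, edgeR q = 0.0003068), and that of Abl1 had 395 and 144 reads (-0.75, -1.03 to -0.47, q = 0.01356), past 0.67. These rows do not separate the endogenous genes from the transgene, and neither shows a higher level at week-3, so induction of BA could not be checked from them. The paper reports, by qRT-PCR on LSKs of this model, a higher BA level at week-3. In bulk libraries, fewer cells of a type and less RNA per cell cannot be told apart.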

How the data were processed

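Scl/tTA-BA BM LSKs of 3 mixed mice were sequenced as 1 library at each of week-0 and week-3. The authors prepared cDNA with a SMARTer Ultra Low Input kit, sequenced paired 100-base reads and mapped them to GRCm38 with TopHat2 2.0.9. The authors deposited counts, as whole reads per gene without scaling, and FPKM, which they scaled by exon length and total reads. The counting tool, strand setting and annotation release are not given in the sources used here. The length behind the FPKM had a median of 1.36 times the union of exons for 29 redox genes, which touches comparisons of levels between genes. These 29 have several transcripts, at least 50 reads at week-0 and the same coordinates in GENCODE M21. Sod1 is not among them, and its length went the other way, 0.646 kb against a union of exons of 3.97 kb. Depth was 6356164 and 3886695 reads.

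Counts were tested with edgeR 4.0.16 (R 4.3.3) by the exact test at an assumed biological coefficient of variation (0.1), over genes above 0 in both libraries and with Benjamini-Hochberg q-values. A call needed q under 0.05 together with a ratio of FPKM of 2 or more, or 0.5 or less. Changes used FPKM without a pseudocount, and medians used log2(FPKM + 0.1) over the genes that reached 1 FPKM in either library. Intervals at 95% are exact Clopper-Pearson intervals from the reads and cover counting error only, since amplified reads are not independent molecules. Scaling by median-of-ratios used DESeq2 1.42.0. Procedures were tested on simulated data. Strand, overlaps and coding sequences came from GENCODE M21, where all 66 genes were found and 46 had the same coordinates, and promoters came from RefSeq (GRCm38.p6).

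The members, lists and tests were chosen with earlier results of these data known. Named were all called redox genes, the 5 with the highest mean FPKM, Gclc, Gclm, Gss, Gsr, Gpx1, Gpx4, Gstm1, Gstp1, Gsto1, Prdx1 to Prdx6, Txn1, Txn2, Txnrd1, Txnrd2, the Sod, Nqo and Cat genes, Nfe2l2, Keap1, the called genes of the wider pathway and Txnip. Other redox genes, and G6pdx, Mafg and Hmox1, were named after their values were seen. Alternatives were other dispersions, fold limits, filters, pseudocounts and scalings, an exact binomial test, and sums without the highest member; sums as shares of reads, the alternatives for the wider pathway and those for the 1.5-fold limits were added after seeing the data. Results for some genes are not reported here.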

Additional observations from a re-analysis of the deposited data

How the results depend on the processing

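No paired analysis was possible because each time point has 1 library, and for the same reason no replicate could be left out. The dispersion is assumed, not measured, and sets the number of calls. With a biological coefficient of variation of 0.2, the redox genes Gsr, Gstm1, Gstm4 and Txnl4b stayed upregulated, and 1 redox gene (Gpx7) was downregulated. At this setting 6 and 5 genes of the wider pathway were called up and down, and 601 of all genes were upregulated and 939 downregulated. With 0.4, 0 redox genes were called in either direction, against 29 and 87 of all genes, and of the wider pathway 1 (Cybb) was upregulated and 0 downregulated. At the 1.5-fold limits, 13 redox genes passed upward and 6 downward, and 2252 of all genes upward. The 13 became 8 under TMM and 8 under median-of-ratios, and 4 at a coefficient of variation of 0.2, where the 6 became 1. All genes were not counted at the 1.5-fold limits under these settings. The fold limits alone gave 2191 and 2495 of all genes. TMM scaling moved all changes by -0.11 and median-of-ratios by -0.09, and the median of all genes became -0.01 under TMM.

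Under TMM and median-of-ratios, the log2 ratio of summed levels was 0.38 and 0.41 for glutathione peroxidases, 0.47 and 0.49 for S-transferases, 0.14 and 0.16 for peroxiredoxins, 0.00 and 0.02 for thioredoxins with reductases, 0.10 and 0.13 for thioredoxin-domain genes and 0.70 and 0.73 for superoxide dismutases with catalase. Without the highest member it was -0.10 for synthesis and recycling, 0.34 for peroxidases (without Gpx1), 0.69 for S-transferases (without Gstp1), 0.20 for peroxiredoxins (without Prdx1), 0.34 for thioredoxin-domain genes (without Txnl1), 0.24 for dismutases with catalase and 0.08 for the Nrf2 axis. As reads it was 0.60, 0.51, 0.71, 0.13, 0.15, 0.08, 0.73 and -0.10 for synthesis, peroxidases, S-transferases, peroxiredoxins, thioredoxins with reductases, thioredoxin-domain genes, dismutases and the Nrf2 axis.

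Of single genes, Txn1 became -0.01 under TMM, and Txnrd1 became -0.06 under TMM and -0.04 under median-of-ratios. Gstp2 fell below 2-fold under TMM (0.97) and under median-of-ratios, as did Ggct (0.96 and 0.99). With a pseudocount of 1, Cybb was 2.49, and of 22 called genes 3 were inside the 2-fold limits, Ggct (0.64), Srxn1 (-0.83) and Slc7a11 (-0.33).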

Other observations

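A further list, KEGG glutathione metabolism as given in the deposited tables, was added after values were seen. It holds 52 genes, of which 41 had reads in both libraries, 11 were upregulated (26.8%) and 2 downregulated (4.88%), where 8.11% and 10.1% of all tested genes were. Outside the redox set and the wider pathway, 3 of its genes were upregulated, and they act in nucleotide, polyamine and peptide metabolism. Rrm2, the small subunit of ribonucleotide reductase, had 247 and 658 reads and an FPKM of 10.5 and then 45.5 (log2 change 2.12, 1.91 to 2.34, edgeR q = 1.773e-17). Srm, spermidine synthase, had 1499 and 2225 reads (1.28, 1.18 to 1.37, q = 4.485e-08). Anpep, a membrane aminopeptidase, had 5 and 13 reads (2.09, 0.51 to 3.93, q = 0.02596). Odc1, which makes putrescine for Srm, had an FPKM of 110.7 and then 64.9 (-0.77, -0.90 to -0.64, q = 0.002374), past the limit of 0.67 only. Rrm1, of the same reductase as Rrm2, had 504 and 491 reads (0.67, 0.49 to 0.85), past the 1.5-fold limit only.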
